A study of Homo sapiens with 6 samples.

Results

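Terminal oligopyrimidine (TOP) mRNAs begin at the cap with a C followed by an unbroken run of pyrimidines. Most of them encode ribosomal proteins and translation factors, and their translation is known to depend on the kinase complex mTORC1 and on LARP1, a protein that binds the cap and the pyrimidine run. A smaller number of TOP mRNAs encode proteins outside the ribosome. Described here are 7 that are listed as such, chosen by name from a table of 19669 genes: TPT1, NACA, BTF3, PABPC1, NAP1L1, VIM and EIF4A2. All 7 were found, and all 7 were at 1 unit or more in every library.

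The cells were 786-O, a human clear cell renal carcinoma line. RNA-seq and Ribo-seq, which sequences the mRNA fragments protected by ribosomes (footprints), were each performed on cells labelled EV (empty vector), WT and MT. There was 1 library per label and assay, so 6 libraries in all. The sources disagree on the groups: the series title pairs WT with PHYHD1-WT and MT with a PHYHD1 that lacks a segment, whereas the design text calls WT untreated and MT overexpressing. PHYHD1 belongs to the iron- and 2-oxoglutarate-dependent dioxygenases. Its mRNA stood at 0.092, 117.6 and 109.5 FPKM in EV, WT and MT. Its Ribo-seq values were 221.7 TPM in WT and 905 TPM in MT, with EV listed at 0, so the library labelled WT goes against the description as untreated. The sources do not say whether the 3 dishes per condition went into 1 library. With 1 library per label no difference has a replicate check and no p-value is given: every comparison is between libraries, not conditions.

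RNA-seq values were taken to be FPKM and Ribo-seq values to be TPM, both of which correct for the length of the transcript. The columns hold no read totals. The spacing of low RNA-seq values gave the EV library values per read 1.06 times those of WT and 1.05 times those of MT. These are the commonest ratios after rounding, held by 31 of 399 low genes for WT and 31 of 390 for MT, and are rough. Of 6 renal carcinoma line markers, PAX8 (75.9 to 94.0 FPKM), EPAS1, KRT8, KRT18 and CDH2 were present at 12.1 FPKM or more in every RNA-seq library, and CA9 was listed at 0. Of 5 markers of other cell types, PECAM1 and CD3E were at 0 in all 6 libraries and the summed level of the list was at most 0.071 FPKM and 0.256 TPM.

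The start of the transcript is what defines the class, so the bases around the annotated start of each member are shown. They were read from RefSeq (GRCh38.p14) and run 5′ to 3′ on the transcribed strand, with 10 bases before the start and the first 20 transcribed bases. Capitals mark the pyrimidine run at the start where it is a C followed by at least 4 bases that are each C or T. PABPC1 was not matched in the promoter table. EIF4A1, the close relative of EIF4A2, and RPS6, a ribosomal protein mRNA of the small subunit, are given for comparison.
TPT1, chr13:45341164-45341193, minus strand: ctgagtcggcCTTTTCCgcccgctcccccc
NACA, chr12:56725280-56725309, minus strand: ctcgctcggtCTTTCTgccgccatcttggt
BTF3, chr5:73498432-73498461, plus strand: cttccggcctCCCTTTagctgccatcttgc
NAP1L1, chr12:76084666-76084695, minus strand: gctcttgggtCTTTTTTagcgccatctgct
EIF4A2, chr3:186783567-186783596, plus strand: gcgccgctgtCTTTTCagtcgggcgctgag
VIM, chr10:17228231-17228260, plus strand: atcgtgatctgggaggcccacgtatggcgc
EIF4A1, chr17:7572815-7572844, plus strand: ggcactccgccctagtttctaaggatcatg
RPS6, chr9:19380217-19380246, minus strand: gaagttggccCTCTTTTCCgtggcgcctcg

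The run at the annotated start was 7 bases in TPT1 and NAP1L1 and 6 bases in NACA, BTF3 and EIF4A2, so 5 of the 6 matched members began with the motif. VIM did not, and its longest run of C or T within 20 bases either side of the annotated start was 4 bases. Within 40 bases either side it was 7 bases, where the median over all promoters was 6. EIF4A1 had a run of 3 bases, short of the motif, and RPS6 a run of 9. The motif at the annotated start was found in 4.07% of the 35116 promoters in the table. Some genes have several promoters there. Counted as genes with the motif at any annotated start, it was in 5.14% of 27305 genes and in 7.94% of genes at 1 unit or more in all 6 libraries. Among other TOP lists it was at an annotated start of 28 of 38 large subunit protein genes, 19 of 25 small subunit protein genes, 3 of 4 elongation factor genes and 8 of 8 further TOP genes matched. An annotated start is not a start mapped in these cells.

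The 7 mRNAs were abundant. Together they made up 1.04%, 1.08% and 1.02% of the summed FPKM in EV, WT and MT, and 0.468%, 0.486% and 0.467% of the Ribo-seq total. VIM, which encodes the intermediate filament protein vimentin, had the highest level of the 7 in both assays. EIF4A2 had the lowest mRNA level and PABPC1 the lowest footprint level. The order of mRNA levels in EV and WT was not the same, with TPT1 above PABPC1 in EV and below it in WT, and with no replicate libraries such neighbours cannot be called different.

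**Figure D1:**
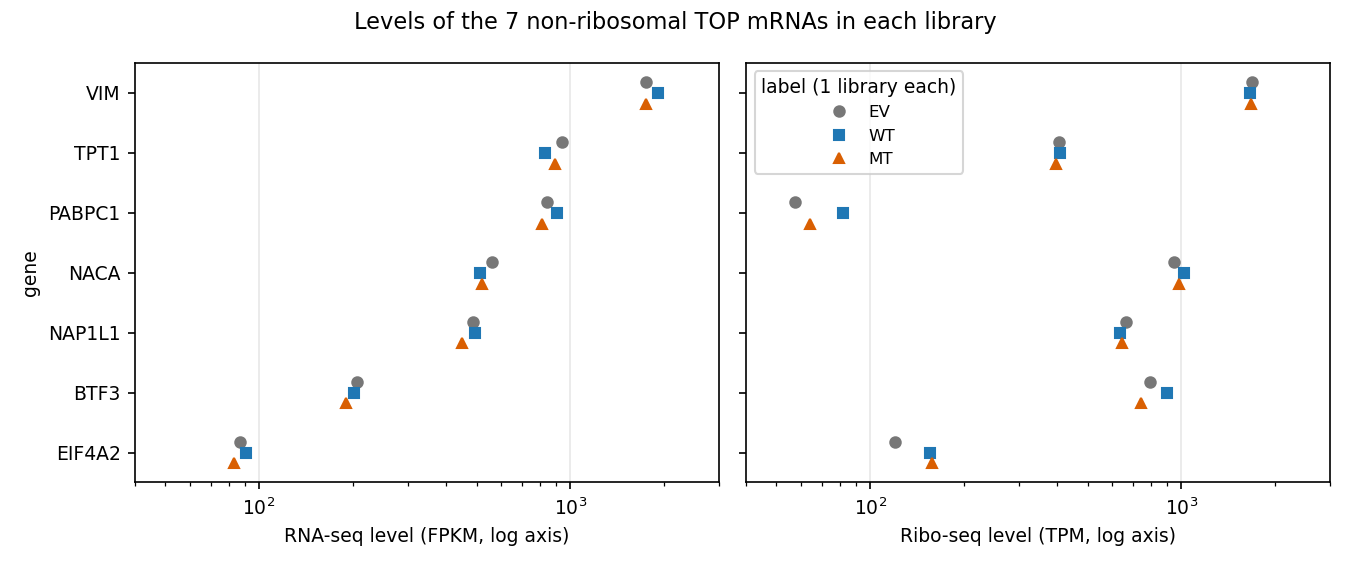
Level of each of the 7 mRNAs in RNA-seq (left, FPKM) and Ribo-seq (right, TPM), both on log axes, with 1 point per library and genes ordered by mRNA level in EV. The 3 labels lie close together for every gene in RNA-seq, and PABPC1 moves from near the top of the left panel to the low end of the right panel (57.4 to 81.6 TPM).

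TPT1 (ENSG00000133112.17) encodes the translationally controlled tumour protein, an abundant cytosolic protein named for the control of its mRNA. Its mRNA stood at 941, 832 and 892 FPKM in EV, WT and MT. Its footprints stood at 406, 406 and 395 TPM in EV, WT and MT. The mRNA was lower by 0.18 (log2) in WT than in EV, and the footprint level differed by 0.00.

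NACA (ENSG00000196531.14) and BTF3 (ENSG00000145741.17) encode the alpha and beta subunits of the nascent polypeptide-associated complex, a heterodimer that meets new proteins at the ribosome exit. NACA mRNA stood at 561, 514 and 521 FPKM in EV, WT and MT, and its footprints at 950, 1019 and 985 TPM in EV, WT and MT. BTF3 mRNA stood at 206, 202 and 190 FPKM in EV, WT and MT, and its footprints at 793, 901 and 745 TPM in EV, WT and MT. On these values, read as scaled for length, BTF3 had 0.367, 0.393 and 0.366 times the mRNA level of NACA in EV, WT and MT. The footprint level of BTF3 was 0.835, 0.884 and 0.756 times that of NACA. The mRNAs of the subunits were therefore further from equal than their footprints in each of the 3 labels.

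PABPC1 (ENSG00000070756.17) encodes the main cytoplasmic poly(A)-binding protein, which joins the poly(A) tail to the initiation factor eIF4G. Its mRNA stood at 841, 908 and 812 FPKM in EV, WT and MT. Its footprints stood at 57.4, 81.6 and 64.1 TPM in EV, WT and MT, with WT the highest. The footprint level in WT was 1.42 times that in EV and 1.27 times that in MT.

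NAP1L1 (ENSG00000187109.15) encodes a histone chaperone. Its mRNA stood at 487, 496 and 450 FPKM in EV, WT and MT, and its footprints at 664, 636 and 644 TPM in EV, WT and MT. VIM (ENSG00000026025.16) mRNA stood at 1746, 1911 and 1751 FPKM in EV, WT and MT, and its footprints at 1691, 1662 and 1675 TPM in EV, WT and MT. Across the labels the highest Ribo-seq value was 1.04 times the lowest for NAP1L1 and 1.02 times for VIM.

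EIF4A2 (ENSG00000156976.17) encodes one of the DEAD-box helicases that act as eIF4A. Its mRNA stood at 86.7, 90.5 and 83.4 FPKM in EV, WT and MT. Its footprints stood at 120.5, 155.7 and 157.8 TPM in EV, WT and MT, so that EV was the low library and WT and MT were alike. The footprint level was 1.29 times that of EV in WT and 1.31 times in MT. Both ratios use the same EV library.

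A gene was called higher or lower at a 2-fold difference after adding 1 to each value, which is a cut on size alone. A finer rule asked for an absolute log2 difference of 0.32 or more among genes at 100 units or more in both libraries, and, chosen after seeing the data so that every member entered, at 50 units or more. In mRNA level 0 of 7 members passed the 2-fold rule in WT over EV, MT over EV or WT over MT, where 0.499%, 0.29% and 0.508% of genes did. None passed the finer rule at 50 units either, which 4.51%, 2.4% and 4.02% of genes passed, or at 100 units, where 6 members entered and 4.53%, 2.4% and 3.75% of genes passed. The largest mRNA difference among the members was that of TPT1 in WT over EV (-0.18), and one at least as large was seen in 21.7% of genes at 50 units or more.

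The members' mRNA values did not lean one way in WT over EV, with 4 above 0 and 3 below. Their median was 0.02 against -0.01 over 11032 genes, of which 48.9% were above 0. With scaling to nuclear genes the members' tally was 3 above and 4 below. In MT over EV 6 of 7 members were below 0, with VIM at 0.00, beside 51.3% of 11016 genes. The members' median was -0.08 against -0.01 over all genes. The members' values ran from -0.12 to 0.00. In WT over MT the median was 0.12, with 5 above 0, against 0.00 over 11013 genes, of which 51% were above 0.

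In Ribo-seq 0 of 7 members passed the 2-fold rule in WT over EV, MT over EV or WT over MT, where 3.36%, 2.83% and 3.19% of genes did. The finer rule at 50 units was passed by PABPC1 (0.50) and EIF4A2 (0.37) in WT over EV, where 15.7% of 2319 genes passed it. It was passed by EIF4A2 (0.39) in MT over EV, where 5.72% of 2341 genes passed, and by PABPC1 (0.34) in WT over MT, where 12.7% of 2327 passed. At 100 units PABPC1 does not enter, and EIF4A2 was then the only member past the finer rule, in WT over EV (13.7% of genes) and in MT over EV (4.49%), and 0 of 6 passed in WT over MT (11.1%).

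A Ribo-seq difference as large as that of PABPC1 in WT over EV was seen in 3.49% of genes at 50 units or more. One as large as that of EIF4A2 in MT over EV was seen in 2.78%. The difference of EIF4A2 in WT over EV was matched in 10.6% of such genes and that of PABPC1 in WT over MT in 10.7%. PABPC1, at 57.4 TPM in EV, lies near the minimum of that set. Among all genes measured, counted from the lowest, PABPC1 stood at percentile 91 in WT over EV. EIF4A2 stood at percentile 87.8 in MT over EV. The other members differed by less than 0.20 from EV. BTF3 stood at 0.18 in WT and -0.09 in MT over EV, and TPT1, NAP1L1 and VIM lay between -0.06 and 0.00 in both. The members' median was 0.10 in WT over EV (all genes 0.03) and -0.01 in MT over EV (all genes 0.01).

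**Figure D2:**
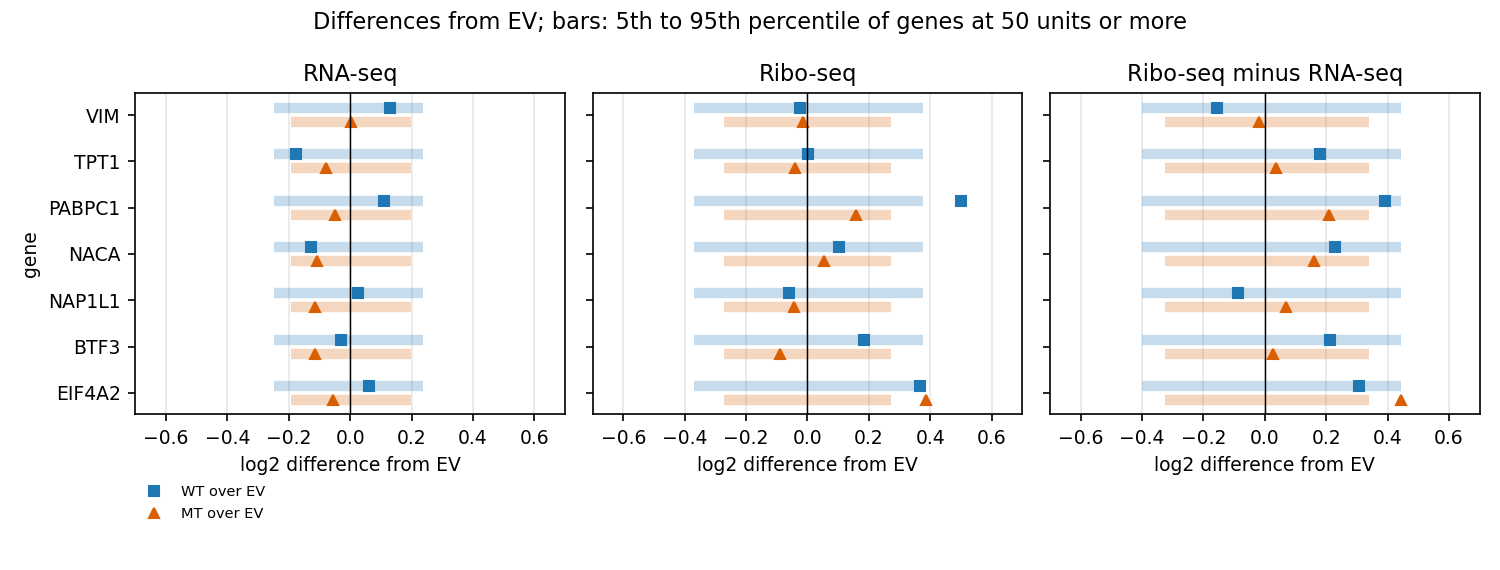
Log2 difference from EV of each mRNA in RNA-seq, in Ribo-seq and in Ribo-seq minus RNA-seq, for WT (squares) and MT (triangles). Pale bars span the 5th to 95th percentile of genes at 50 units or more, so they hold 90% of these genes. In Ribo-seq PABPC1 in WT (0.50) and EIF4A2 in MT (0.39) lie outside the bars, and in RNA-seq all 7 lie inside. In Ribo-seq minus RNA-seq only EIF4A2 in MT (0.44) lies outside.

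How many footprints an mRNA carried for its level differed far more between the members than between the labels. The footprint-to-mRNA ratio was taken as log2(TPM + 1) minus log2(FPKM + 1), and since the units differ only its place among genes can be read. In EV it was 1.94 in BTF3, 0.76 in NACA, 0.47 in EIF4A2, 0.45 in NAP1L1, -0.05 in VIM, -1.21 in TPT1 and -3.85 in PABPC1, a span of 55.2-fold. The spans in WT and MT were 48.9-fold and 48.7-fold. PABPC1 alone set the low end, far under TPT1. Wide spans were not particular to these mRNAs. In EV they were 1443-fold among large subunit genes, 135-fold among further TOP genes and 83.4-fold among small subunit genes. Among elongation factor genes the span was 5.22-fold. BTF3 was at percentile 91.8 of 10068 genes in EV, and VIM at percentile 44.5, close to the middle.

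PABPC1 was among the lowest genes of the table in this ratio. It ranked 21 from the lowest of 10068 in EV, 34 of 10049 in WT and 29 of 10088 in MT. TPT1 was at percentile 14.0 in EV, 16.2 in WT and 13.9 in MT. Both stayed on the same side of the gene median (0.12 in EV, 0.15 in WT, 0.13 in MT) in all 3 labels, as did VIM on that side and NACA, BTF3, NAP1L1 and EIF4A2 on the other.

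Many of these genes have processed copies elsewhere in the genome, to which short footprints may map as well, and no source used here gives how the authors treated such reads. By symbol, RefSeq (GRCh38.p14) names 13 PABPC1 pseudogenes, 14 of TPT1, 16 of BTF3, 7 of NACA, 5 of EIF4A2, 3 of NAP1L1 and 0 of VIM. These counts by symbol show neither how alike the copies are nor how reads were assigned. The part of shared reads in these values was not tested, and the levels of the members with copies are uncertain to that extent.

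**Figure D3:**
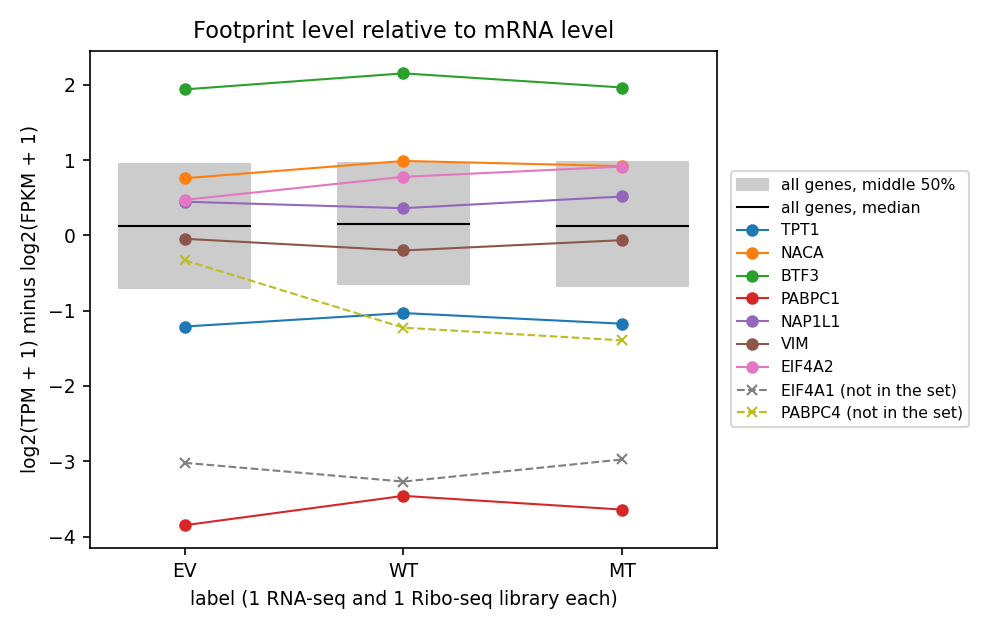
Footprint level relative to mRNA level, as log2(TPM + 1) minus log2(FPKM + 1), in each label, for the 7 mRNAs and for 2 relatives (dashed). Grey boxes hold the middle 50% of all genes and the black line their median. PABPC1 (-3.85 in EV) and EIF4A1 (-3.02 in EV) lie far under the grey box in every label, and BTF3 (1.94 in EV) above it.

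Relatives of the members did not share their footprint-to-mRNA ratio in each case. EIF4A1, the more abundant eIF4A mRNA, stood at 417, 527 and 451 FPKM in EV, WT and MT, but its footprints stood at 50.5, 53.7 and 56.4 TPM in EV, WT and MT. EIF4A2 thus had 0.208 times the mRNA level of EIF4A1 in EV and 2.38 times its footprint level, and in WT 0.172 and 2.90 times. RefSeq names 13 EIF4A1 pseudogenes by symbol. EIF4A3, the eIF4A relative of the exon junction complex, stood at 43.1 FPKM and 158.3 TPM in EV.

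PABPC4, a second cytoplasmic poly(A)-binding protein gene and itself listed among TOP mRNAs, was lower in WT than in EV in Ribo-seq (-0.61, log2), where PABPC1 was higher (0.50). In WT over MT both were higher, by 0.36 and 0.34. Its footprints stood at 87.7, 57.2 and 44.2 TPM in EV, WT and MT, with mRNA at 110.5, 135.1 and 118.0 FPKM in EV, WT and MT. PABPC1 had 0.655, 1.43 and 1.45 times the footprint level of PABPC4 in EV, WT and MT, with 7.61, 6.73 and 6.88 times its mRNA level. PABPC1L stood at 8.0 FPKM and 3.1 TPM in EV, and PABPC3 was listed at 0 in all 6 libraries.

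NAP1L4, the other widely expressed member of its family, kept its distance to NAP1L1, which had 5.94 times its mRNA level and 5.76 times its footprint level in EV. BTF3L4, a relative of BTF3, had a footprint-to-mRNA ratio of 2.10 in EV, close to the 1.94 of BTF3, and BTF3 had 4.33 times its mRNA and 3.82 times its footprint level. NAP1L5 stood at 1.49 FPKM and 3.81 TPM in EV. NACA2, NAP1L2 and NAP1L3 were listed at 0 throughout, and NACAD, PABPC5 and the intermediate filament genes DES, GFAP, PRPH and NES stayed below 1 unit.

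The difference between labels in the footprint-to-mRNA ratio is the Ribo-seq difference minus the RNA-seq difference. In WT over EV it was 0.39 in PABPC1, 0.31 in EIF4A2, 0.23 in NACA, 0.21 in BTF3, 0.18 in TPT1, -0.09 in NAP1L1 and -0.16 in VIM. The members' median was 0.21, against 0.04 over 10335 genes. In MT over EV EIF4A2 stood at 0.44, PABPC1 at 0.21 and NACA at 0.16, and the other 4 lay between -0.02 and 0.07, with a median of 0.07 against 0.02 over 10331 genes.

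None of the 7 passed the 2-fold rule in this ratio in WT over EV, MT over EV or WT over MT, where 4.21%, 3.51% and 4.82% of genes did. PABPC1 passed the finer rule in WT over EV (22.3% of 1243 genes at 50 units or more did), EIF4A2 in MT over EV (11% of 1248), and 0 of 7 in WT over MT (20.2% of 1247). A share of 1 in 7 is close to these backgrounds. Differences as large as that of EIF4A2 in MT over EV were seen in 4.01% of genes at 50 units or more. In WT over MT the members ran from -0.16 to 0.19.

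The 7 mRNAs can be set beside other lists of TOP mRNAs, taken from general knowledge of the class. The 7 were kept as listed, with VIM, whose annotated start lacks the motif, and PABPC1, whose start was not matched. Among elongation factor genes the median difference in the ratio was -0.23 in WT over EV and -0.15 in MT over EV, with 4 of 5 and 5 of 5 members below 0. Of all genes 46.3% and 48% were below 0. EEF1A1, which delivers aminoacyl-tRNA to the ribosome, stood at 3001, 2637 and 2529 TPM in EV, WT and MT, with mRNA at 3004, 3088 and 2811 FPKM. EEF1B2, its exchange factor, stood at 1032, 874 and 891 TPM in EV, WT and MT, with mRNA at 250.7, 262.3 and 274.6 FPKM.

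Among 13 further TOP mRNAs, which include eIF3 subunits, HNRNPA1 and PABPC4, the medians were -0.25 in WT over EV and -0.19 in MT over EV, with 8 and 11 members below 0, beside the same shares of all genes (46.3% and 48%). RACK1, a protein of the small ribosomal subunit, stood at 2267, 2441 and 2067 TPM in EV, WT and MT. COX7C, a cytochrome c oxidase subunit, stood at 1205, 1498 and 1212 TPM in EV, WT and MT. PABPC4 (-1.07 in MT over EV) was the only gene of this list past the 2-fold rule in any comparison. At a minimum of 10 units, which leaves out no member of the 7, the medians of this list were -0.17 and -0.13.

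Ribosomal protein genes had medians close to 0 in the ratio, with single genes on both sides. The 47 large subunit genes had a median of -0.02 in WT over EV and -0.06 in MT over EV, and the 32 small subunit genes -0.03 and -0.07. In WT over EV the large subunit genes ran from -0.42 to 0.63, and of the 44 at 50 units or more 5 passed the finer rule upward and 5 downward. That share is close to the 22.3% of all 1243 genes at 50 units or more that passed it in either direction. RPL37 stood at 8538, 7124 and 8005 TPM in EV, WT and MT, with mRNA at 278.1, 223.6 and 259.9 FPKM, and RPL37A at 7202, 6218 and 6770 TPM. RPS24 stood at 8482, 8548 and 8175 TPM. In footprint level alone, the median of the 7 mRNAs was 0.10 in WT over EV and those of the 4 other TOP lists lay between -0.17 and -0.13. In MT over EV it was -0.01, against -0.21 to -0.09. In WT over MT it was 0.04, inside the span of the other lists (-0.05 to 0.05). No test of these differences was possible with 1 library per label, and both comparisons with EV share its libraries.

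**Figure D4:**
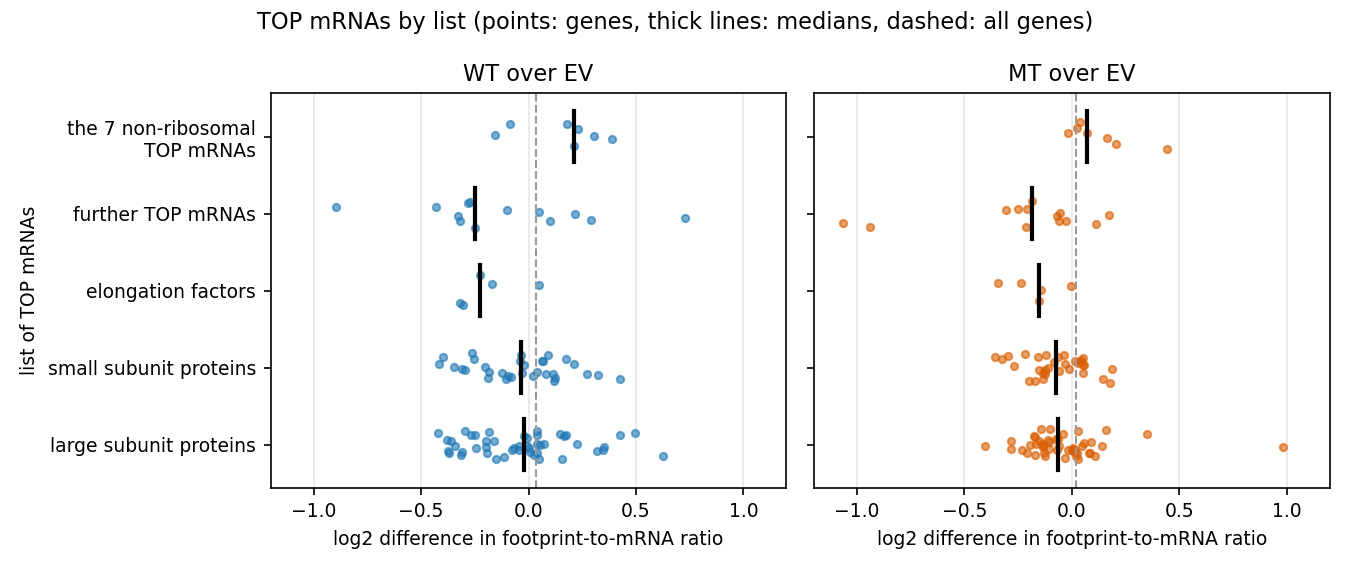
Log2 difference in the footprint-to-mRNA ratio for each gene of 5 TOP lists in WT over EV (left) and MT over EV (right), with list medians as thick lines and the median of all genes dashed. The median of the 7 mRNAs (0.21 in WT, 0.07 in MT) lies to the right of the dashed line and those of the other lists to the left, with wide overlap of single genes.

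For each member the gene with the most similar values over the 6 libraries was found, by Euclidean distance on log2(value + 1) among 9705 genes. For TPT1 it was HSPA8 (distance 0.58), for NACA AKR1B1 (0.31), for BTF3 HINT1 (0.25), for NAP1L1 HNRNPK (0.18), for VIM ENO1 (0.57) and for EIF4A2 OAT (0.29). PABPC1 had no close neighbour: the nearest gene was MT-ND6, a mitochondrially encoded subunit of complex I, at a distance of 0.97. These 6 values are single libraries and share their scaling. A short distance reflects the levels more than the differences between labels: OAT footprints stood at 129.6, 145.6 and 135.6 TPM in EV, WT and MT.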

How the data were processed

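Columns of the deposited table were matched to samples by name. Its RNA-seq columns name no unit and were read as FPKM, since the totals of the deposited columns differ (459938 to 469859). They could also be TPM over a larger gene set. The deposited Ribo-seq columns were read as TPM, since each sums to 1000000. Values scaled to the read total without correction for length would have the same sum, so the sum does not settle the unit. Comparisons between genes of footprint level or footprint-to-mRNA ratio depend on the reading as TPM. Per the labels' protocols, elongation was blocked with cycloheximide, footprints were made with RNase I, and ribosomal RNA was removed. The submitters' processing notes name human genome build hg 18. The aligner, counting, annotation and treatment of reads that map to several places are given in none of the sources used here. Rows without a gene name (605, 0.153% to 0.158% of each RNA-seq total, 0.513% to 0.564% of each Ribo-seq total) and 7 symbols with differing rows were left out.

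Values were compared as log2(value + 1) for genes that reached 1 unit in a library compared. This scale understates changes of low genes. There was 1 library per label and assay, so no test was run. The calculation was tested on simulated libraries. Gene identifiers were taken from the reference symbol table, matched by symbol. Named genes were the 7 members, their relatives, the 2 most abundant and up to 4 genes past the 2-fold rule of each list, and the most similar gene. Some genes that this rule or the marker list names are not reported here. The members and lists were chosen with earlier results of these data known. Alternatives were a pseudocount of 0.1, a minimum of 10 units or none, centring on the median gene, scaling to nuclear genes, and search windows of 10 and 40 bases. Python 3.11.15 and pandas 2.3.3 were used.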

Additional observations from a re-analysis of the deposited data

How the results depend on the processing

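No paired analysis was possible because each group has 1 library, and no replicate could be left out. The members are abundant, so their values moved little. Over 63 values (7 genes in 9 comparisons) the largest shift was 0.01 (log2) with a pseudocount of 0.1, 0.03 with centring on the median gene and 0.04 with scaling to nuclear genes, and the filters moved none. The sign changed in 1 value under centring and in 4 under nuclear scaling, whose values before scaling were at most 0.0248 in size. One of these, NAP1L1, sets the members' median mRNA difference in WT over EV, which nuclear scaling moved from 0.0248 to -0.0045, and the median Ribo-seq difference in MT over EV moved from -0.0135 to 0.0020. With a window of 40 bases 6 members, VIM included, had a run of 6 or more bases of C or T, and with 10 or 20 bases 5 did. Such a run was present in 58.7% of all promoters at 40 bases, 38.8% at 20 and 22.2% at 10. The count of members past the 2-fold rule was 0 under every setting. At a minimum of 50 units, 2 members passed the finer rule in Ribo-seq in WT over EV and 1 in WT over MT, since PABPC1 then enters. Counts over all genes depended on low values. With a pseudocount of 0.1, the genes past the 2-fold rule in WT over EV, MT over EV and WT over MT numbered 177, 145 and 198 in RNA-seq, 694, 660 and 727 in Ribo-seq and 802, 725 and 876 in the footprint-to-mRNA ratio. At a minimum of 10 units they numbered 15, 9 and 15, then 90, 85 and 101, then 83, 65 and 101. With nuclear scaling 50 genes passed in RNA-seq in MT over EV. Counting error is unknown, as no read totals are given, and the lone library per label limits every comparison.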

Other observations

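Genes that act on TOP mRNAs or bind the proteins described above were compared as well. Among 22 genes of mTORC1 signalling and TOP mRNA binding, the median Ribo-seq difference was 0.09 in WT over EV and 0.08 in MT over EV, against 0.03 and 0.01 over all genes. Only 5 of the 22 were at 50 units or more in each comparison, so these medians rest mostly on low genes. The values ran from -0.67 to 0.61 in WT over EV and from -1.31 to 0.88 in MT over EV. LARP1 stood at 29.0, 23.0 and 32.9 TPM in EV, WT and MT, with mRNA at 55.6, 63.0 and 66.0 FPKM. EIF4E, the cap-binding protein, stood at 233, 250.1 and 239.7 TPM in EV, WT and MT, and CNBP, which binds TOP mRNAs, at 599, 501 and 571 TPM. RPS6KB2, an S6 kinase, was lower in MT than in EV (5.24 and 1.51 TPM, log2 of -1.31), and RPTOR, the mTORC1 scaffold, was higher in WT than in MT (12.7 and 5.76 TPM, log2 of 1.02). Both rest on low values, and 2.83% of genes (MT over EV) and 3.19% (WT over MT) passed the 2-fold rule in Ribo-seq. LARP1 was named after its values were seen.

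Of the partners of PABPC1 and eIF4A, EIF4H and EIF4G2 had the highest levels, with footprints at 673 and 594 TPM in EV, 694 and 515 in WT and 728 and 588 in MT. EIF4G3 was lower in MT than in EV (9.57 and 4.15 TPM, log2 of -1.04), again at low values. In MT over EV 2.83% of genes passed the 2-fold rule in Ribo-seq. EIF4G1, the scaffold that PABPC1 binds, was named after its values were seen. Its footprints stood at 47.5, 73.9 and 82.5 TPM in EV, WT and MT, with mRNA at 237.8, 257.6 and 250.4 FPKM. The footprint difference was 0.63 in WT and 0.78 in MT over the shared EV library, under the 2-fold rule. At 47.5 TPM in EV it does not enter the finer rule at 50 units. EIF4G2 stood at -0.21 and -0.02 and EIF4G3 at -0.20 and -1.04 in the same comparisons. Of the 10 partners 7 were above 0 in WT over EV and 6 in MT over EV, beside 53.4% and 52.1% of all genes.

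A set chosen by the annotated start alone, added after seeing the data, held genes at 50 units or more that begin with the motif, with the 7 mRNAs left out. Their median difference in the footprint-to-mRNA ratio was 0.01 in WT over EV (149 genes) and -0.04 in MT over EV (150 genes). Genes without the motif had medians of 0.03 (859 genes) and -0.01 (864 genes).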
